A study of Daphnia magna with 12 samples.

Results

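Gene counts from whole juvenile Daphnia magna exposed to the long-chain imidazolium salt C12mimCl were compared with those of unexposed animals. The 6 libraries, of 12 in the series, were chosen by the treatment in their titles, 3 of C12mimCl and 3 of control, and all 46334 gene rows of their count files were considered, of which 15847 had enough reads to be tested. The C12mimCl group (1-dodecyl chloride-3-methylimidazolium in the labels) was kept for 48 h at the EC20 of the salt, the concentration giving 20% of a measured effect. The control group was kept for the same time in blank ASTM medium, a standard artificial freshwater. Both groups started as neonates of the 3rd brood aged under 10 h and were not fed. Each library came from a pool of 90 active animals out of 120 kept in 500 mL in a vessel of their own. The groups C2mimCl (1-ethyl-3-methylimidazolium chloride) and CholCl (cholinium chloride), each also with 3 vessels at their EC20, enter only where they are named. No source used here gives the clone, the endpoint behind the EC20 or the molar concentration. Only active animals were pooled, and the values apply to these.

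Daphnia magna is a small planktonic crustacean that grows by moulting and is a standard test animal for dissolved chemicals. A long-chain imidazolium salt joins a positively charged ring to a hydrophobic alkyl tail, so that it behaves like a cationic surfactant and can associate with cell membranes, and its toxicity to aquatic animals is known to grow with the length of the chain. A whole-body library mixes the RNA of gut, muscle, epidermis, nervous tissue and storage cells. In such libraries fewer cells of a type and less RNA per cell cannot be told apart.

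The 6 libraries held 13400475 to 15539051 reads in genes. The files give genes as numbered identifiers and pair none with a name, so that tissue markers could not be checked and genes are grouped here by direction, size of change and abundance, with 4 given by identifier. Levels are in CPM, the reads of a gene scaled to the TMM-adjusted size of its library, and not per gene length, so that abundance here means abundance of reads. Reads assigned to no gene made up 9.83%, 10.1% and 8.11% of the C12mimCl libraries, against 7.87%, 8.39% and 6.32% of the control libraries. The ranges overlapped, and the means were 9.34% ± 1.08 and 7.53% ± 1.08 (SD, n = 3 each; exact permutation test over libraries, two-sided, p = 0.2, where 0.1 is the smallest p that 3 against 3 libraries allow). Their part in the results was not tested, and counts fitted with this share as a covariate are given below.

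After C12mimCl the transcriptome changed in both directions, but the sizes were unequal. Of 15847 genes tested, 5601 were called (35.3%) by edgeR's quasi-likelihood test at a Benjamini-Hochberg adjusted p below 0.05. Of all genes tested, 2194 rose (13.8%) and 3407 fell (21.5%) relative to control, and 686 rises (4.33%) and 2158 falls (13.6%) were of 2-fold or more. The genes that rose had a median log2 fold change of 0.79, and the genes that fell one of -1.32. Among the called genes with a fitted change under 2-fold, 1508 were higher and 1249 lower. With larger changes falls outnumbered rises, at 586 higher and 1014 lower at 2 to 4-fold, 95 and 389 at 4 to 8-fold, and 5 and 755 at 8-fold or more. Over all genes tested the log2 fold change ran from -8.05 at the 1st percentile and -2.97 at the 5th to 1.15 at the 95th and 1.84 at the 99th, around a median of 0.03. A test of the size itself, with a null of 2-fold or less (edgeR's glmTreat), called 17 genes higher (0.107% of those tested) and 1002 lower (6.32%).

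**Figure D1:**
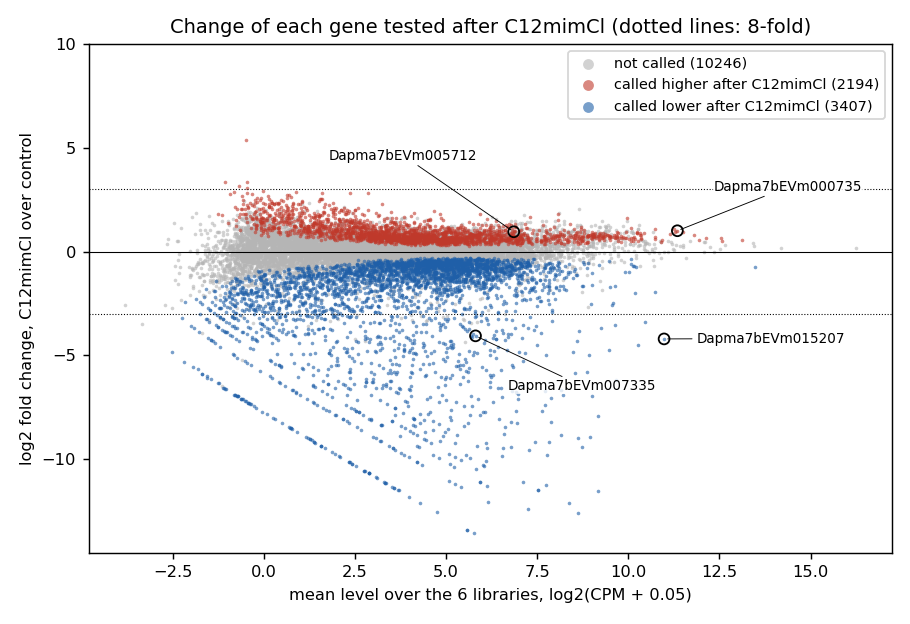
Each point is 1 of the 15847 genes tested, with its mean level over the 6 libraries as log2(CPM + 0.05) on the x axis and its log2 fold change, C12mimCl over control, on the y axis. Red points were called higher (2194), blue points lower (3407) and grey points not called (10246), dotted lines mark 8-fold and circles the 4 named genes. The cloud reaches far further below 0 than above it, and the slanting lines of points at the lower left are genes with 0 or few reads after C12mimCl, whose fitted fold depends on a prior count.

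These counts depended on single libraries. Rises numbered 1147 without C12mimCl replicate 1, 1422 without C12mimCl replicate 2, 908 without control replicate 1, 1193 without control replicate 2 and 3313 without C2mimCl replicate 1, which enters the shared estimate of the spread. All calls numbered 3563 without C12mimCl replicate 1 and 3422 without control replicate 1, whereas falls stayed between 2416 and 4121 whichever of the 12 libraries was left out. With each of the 6 libraries left out in turn, 814 genes were called higher in all 6 fits (5.14% of those tested) and 2258 lower (14.2%). These are 37.1% of the 2194 rises and 66.3% of the 3407 falls. The genes changed by more than 2-fold numbered 490 without C12mimCl replicate 1. The 17 rises among them became 1, 5 and 8 without C12mimCl replicates 1, 2 and 3, 2, 6 and 139 without control replicates 1, 2 and 3, and 84 without C2mimCl replicate 1. The 1002 falls became 378 in limma-voom, whose test sets the null at the edge of 2-fold. The null of glmTreat averages over changes up to 2-fold and is less strict. These counts thus differ in the null as well as in the fit.

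The balance of direction also depended on the scaling of the libraries. Upper-quartile factors in place of TMM factors gave 3892 rises and 2612 falls, so that falls made up 40.2% of the calls instead of 60.8%, and the log2 fold change over all genes had a median of 0.25 instead of 0.03. All 2194 rises and 2612 of the 3407 falls were called the same way under both. When the outside-gene read share was a covariate, there were 1694 rises and 3058 falls, of which 1127 and 2475 were also called in the same direction without it.

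**Figure D2:**
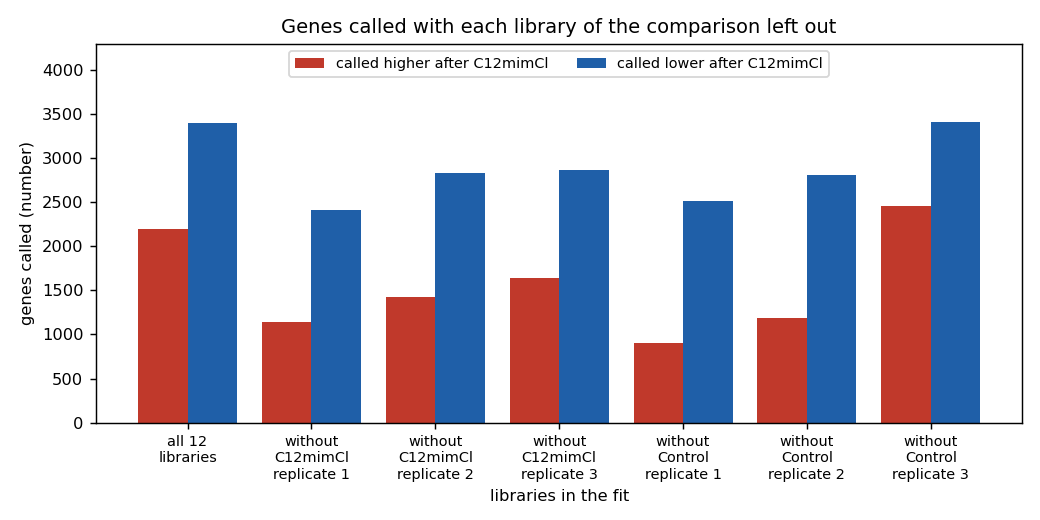
Number of genes called higher (red) and lower (blue) after C12mimCl in edgeR's quasi-likelihood test with all 12 libraries and with each of the 6 libraries of the comparison left out. Rises range from 908 without control replicate 1 to 2463 without control replicate 3, and falls from 2416 without C12mimCl replicate 1 to 3409 without control replicate 3.

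The genes that fell lost a large part of their read share. All 3407 together took 7.94%, 8.78% and 8.75% of gene reads in the C12mimCl libraries, against 27.2%, 21.8% and 23.4% in the control libraries. The genes that rose took 25.8%, 26.3% and 24.5% after C12mimCl, against 15.4%, 15.3% and 17.5% in controls. Since these genes were chosen by the same contrast, the shares describe them and were not tested. The genes called higher held a mean of 16.0% of gene reads in controls, but 9.07% and 9.77% when they were called without control replicate 1 or 2, and 28.2% when they were called with upper-quartile factors. Most of the gain lay in changes of less than 2-fold. The 1508 genes higher by less than 2-fold held 22.7%, 23.3% and 21.9% of gene reads after C12mimCl, against 14.2%, 13.9% and 16.1% in controls. The 686 genes higher by 2-fold or more held 3.13%, 2.96% and 2.61% after C12mimCl and 1.21%, 1.35% and 1.42% in controls.

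**Figure D3:**
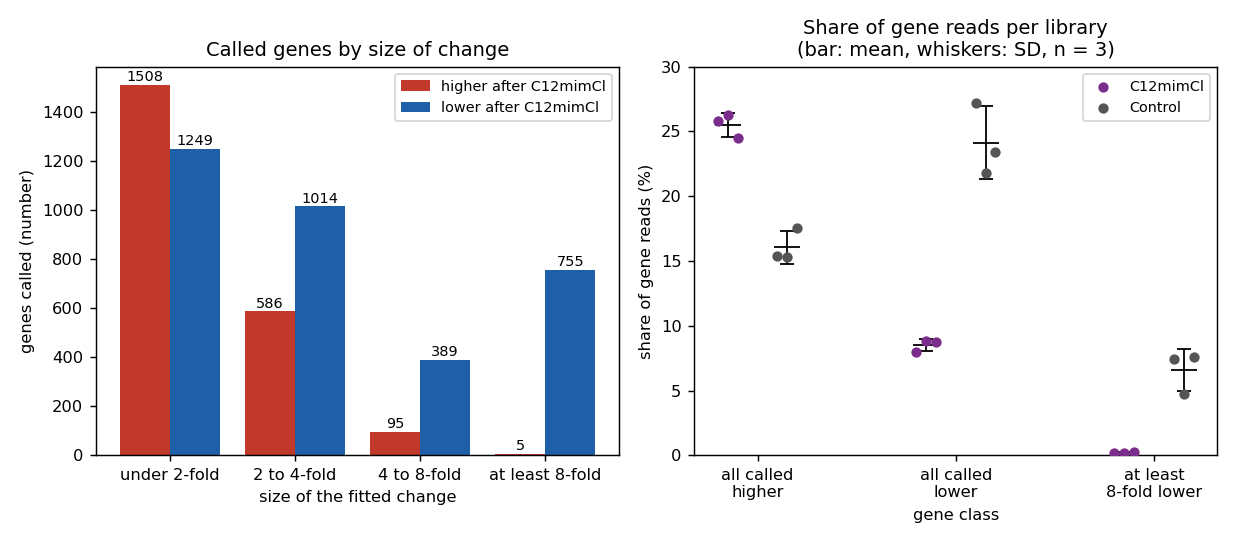
Left, the number of called genes by the size of their fitted change, higher in red and lower in blue; right, the share of gene reads (%) that 3 classes took in each library, C12mimCl in purple and control in grey, with the mean and SD of 3 libraries. Genes at least 8-fold lower number 755 against 5 higher, and the genes called lower take 7.94% to 8.78% of gene reads after C12mimCl, against 21.8% to 27.2% in controls.

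The 755 genes at least 8-fold lower (4.76% of those tested) were expressed in controls at a median of 18.4 CPM and after C12mimCl at 0.216 CPM. They took 0.169%, 0.188% and 0.276% of gene reads in the C12mimCl libraries, against 7.43%, 4.70% and 7.56% in the control libraries. Since these genes were chosen as at least 8-fold lower in the same libraries, the separation follows from the choice and was not tested. For the same reason, the levels of the single gene did not overlap between the groups for 751 of the 755. Over all genes tested the groups did not overlap for 53.7%, with C12mimCl higher for 26.2% and lower for 27.5%. Their median log2 fold change was -5.46, or -5.02 with the 92 genes at 0 reads after C12mimCl set at the bound given by 3 reads over the group. Of the 755, 638 (84.5%) were called lower in each of the 6 fits with 1 library left out. Without control replicates 1, 2 and 3 the count of such genes was 690, 775 and 728, and without C12mimCl replicates 1, 2 and 3 it was 643, 731 and 775.

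These genes also varied among control vessels, with a median coefficient of variation of 38.9%, beside 19.8% for all genes tested. Control replicate 2 was the lowest control for 534 of the 755, whereas it was the lowest for 4914 of all 15847 genes. In the other salts, which share the control libraries, the same genes took 2.76%, 10.6% and 9.74% of gene reads after C2mimCl and 1.21%, 1.32% and 1.81% after CholCl. Their median log2 fold change against control was 0.40 after C2mimCl (quartiles -0.01 and 0.75) and -3.51 after CholCl (quartiles -4.32 and -1.73), against 0.01 and -0.09 over all genes tested. C2mimCl replicate 1, which also lay nearer to the controls than to its own group on the first 2 principal components of all genes, had the lowest share of the C2mimCl libraries.

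**Figure D4:**
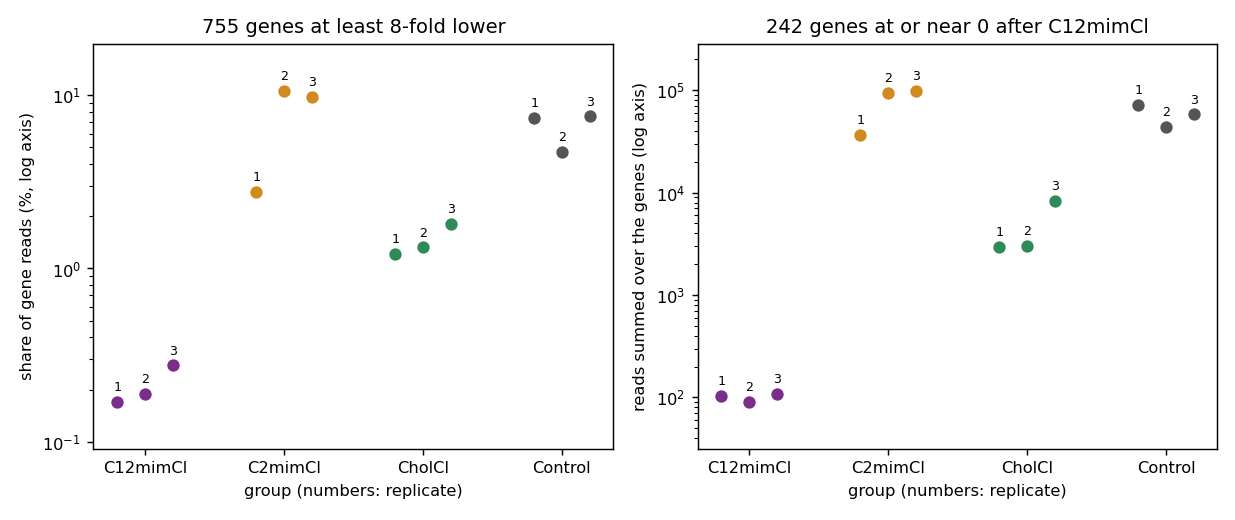
Left, the share of gene reads (%, log axis) in the 755 genes at least 8-fold lower after C12mimCl; right, the reads (log axis) summed over the 242 genes at or near 0 after C12mimCl. Each point is 1 library, with its replicate number. The C12mimCl libraries lie at 0.169% to 0.276% and at 90 to 108 reads, below the CholCl, C2mimCl and control libraries. Both gene sets were chosen for low levels after C12mimCl, so its low place follows from the choice and was not tested.

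A subset of genes was at or near 0 after exposure. With a mean of at least 10 reads a library in controls, 242 genes had 3 reads or fewer over the 3 C12mimCl libraries, and 88 of them had none. Of the 242, 235 passed the count filter and 230 were called lower. Summed over the 242 genes, the C12mimCl libraries held 104, 90 and 108 reads, against 71344, 43919 and 58133 in the control libraries. The rule that chose the genes caps their reads after C12mimCl, so these sums describe them and were not tested. Their mean per library had a median of 72.8 reads in controls, with a range of 10 to 4592 reads, and 104 of them averaged at least 100 reads a library there. The 88 genes with 0 reads were at least 9.48-fold to at least 1508-fold lower when 3 reads over the group were taken as the floor, with a median bound of at least 64.0-fold. This floor covers counting error only. The same 242 genes held 36516, 94274 and 98998 reads after C2mimCl and 2954, 3043 and 8246 reads after CholCl.

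The reverse pattern was rare. With at least 10 reads a library on average after C12mimCl, 7 genes had 3 reads or fewer over the 3 control libraries, and these had 6 to 28 reads in each C12mimCl library against at most 2 in each control library. None of the 7 was at 0 in all 3 controls, and 2 of them were called higher. The count was 16, 19 and 34 when control replicates 1, 2 and 3 were left out. With the limit kept at 3 reads over fewer control libraries, it could only grow. In the same way, the 242 genes near 0 after C12mimCl became 308, 311 and 344 without C12mimCl replicates 1, 2 and 3. The 5 genes called at least 8-fold higher were likewise scarce, at 10 to 28 reads in a C12mimCl library and 0 to 4 in a control library. Such rises (0.0316% of genes tested) numbered 12, 12 and 83 without control replicates 1, 2 and 3, 8, 7 and 10 without C12mimCl replicates 1, 2 and 3, and 11 to 13 without any 1 library of the other salts. Leaving out any 1 library also eased the count filter, which then asks for reads in fewer libraries. Between 16160 and 16272 genes were tested in these fits, instead of 15847. They numbered 0 with a filter at 1 CPM, 45 with no count filter, 19 in limma-voom, 18 with the covariate and 13 with upper-quartile factors.

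Among the genes called higher, larger changes were found in scarcer genes, which follows in part from the calling. The median standard error of the log2 fold change was 0.17 under 2-fold, 0.34 at 2 to 4-fold and 0.62 at 4 to 8-fold. These values are bounded by the calling itself. Over all genes tested the median was 0.55 under 1 CPM and 0.33 at 1 to 10 CPM. It was 0.19 at 10 to 100 CPM and 0.20 over 100 CPM. A scarce gene thus needed a larger change to be called. Rises of 2-fold or more were 5.85% of genes tested under 1 CPM and 7.24% at 1 to 10 CPM. They were 2.11% at 10 to 100 CPM and 2.16% over 100 CPM. The 586 genes that rose 2 to 4-fold had a median level of 6.61 CPM after C12mimCl and 2.54 CPM in controls. The 95 genes that rose 4 to 8-fold had one of 2.13 CPM after C12mimCl and 0.425 CPM in controls. The 1508 genes that rose by less than 2-fold had a median level of 31.2 CPM after C12mimCl and 19.985 CPM in controls. Control replicate 3 held the highest control value for 502 of the 686 genes that rose 2-fold or more, and for 6746 of all 15847 genes tested. Of the 686, 259 (37.8%) were called higher in each of the 6 fits with 1 library left out.

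In the other salts the 686 genes took a smaller share than after C12mimCl. It was 3.13%, 2.96% and 2.61% of gene reads after C12mimCl, 1.41%, 0.698% and 0.779% after C2mimCl and 0.785%, 0.801% and 0.681% after CholCl, against 1.21%, 1.35% and 1.42% in controls. The C12mimCl libraries lay above the others, which follows at least in part from choosing the genes as higher after C12mimCl. The CholCl libraries and C2mimCl replicates 2 and 3 lay below the controls. The median log2 fold change of these genes against control was -0.44 after C2mimCl and -0.64 after CholCl.

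The share of genes called in each direction differed with abundance. Among the 1555 genes with a mean under 1 CPM over the 6 libraries, 95 (6.11%) rose and 285 (18.3%) fell. Of the 5701 genes at 1 to 10 CPM, 729 (12.8%) rose and 1020 (17.9%) fell. The 7020 genes at 10 to 100 CPM had 1043 rises (14.9%) and 1778 falls (25.3%). The 1571 genes over 100 CPM had similar numbers of calls in each direction, with 327 rises (20.8%) and 324 falls (20.6%). Of 2-fold or more, however, there were 34 rises (2.16%) and 183 falls (11.6%) in this class. Genes at least 8-fold lower were 7.14%, 4.86%, 4.25% and 4.39% of these classes from the scarcest to the most abundant. The median standard error of the log2 fold change was 0.55, 0.33, 0.19 and 0.20 in the same order, with the widest errors in scarce genes. Of the 100 most abundant genes in controls, 17 rose and 24 fell, 10 of them by 8-fold or more, beside 13.8%, 21.5% and 4.76% of all genes tested. These 100 genes were chosen by their level in controls, which favours falls, and the difference was not tested. Their joint share was 32.9% to 35.0% of gene reads after C12mimCl and 30.8% to 34.3% in controls.

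**Figure D5:**
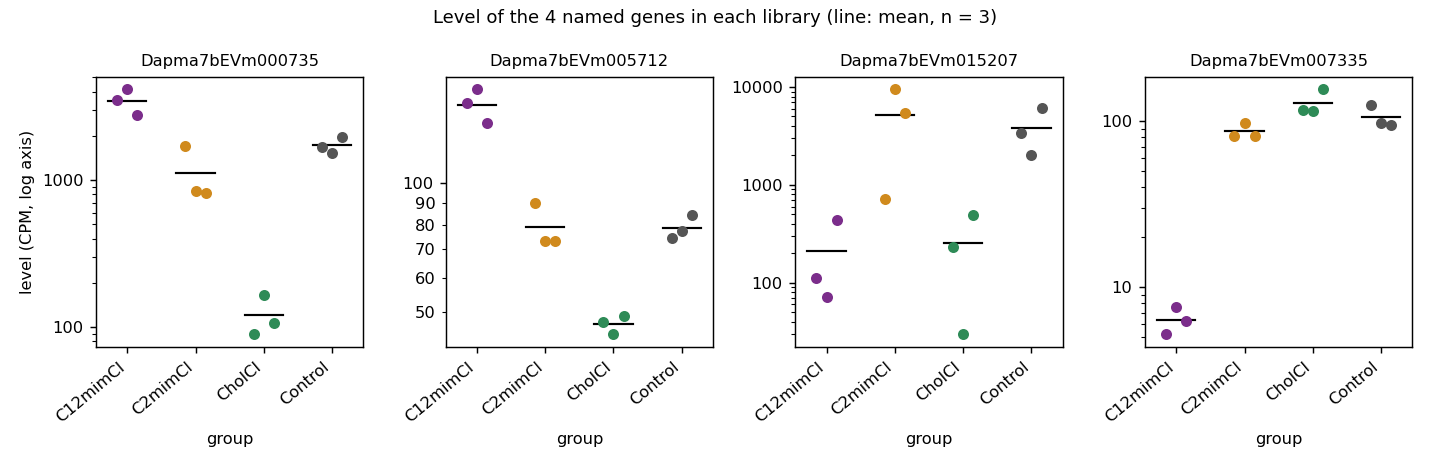
Level (CPM, log axis) of the 4 named genes in each of the 12 libraries, with the mean of 3 libraries as a line. Dapma7bEVm000735 and Dapma7bEVm005712 are highest after C12mimCl, Dapma7bEVm015207 is low after C12mimCl and CholCl, and Dapma7bEVm007335 is low after C12mimCl only, at 5.19 to 7.61 CPM against 81.5 to 156 CPM in the other groups. The genes were chosen by their change after C12mimCl, so its place follows at least in part from the choice.

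The most abundant gene that rose at least 2-fold with no overlap was Dapma7bEVm000735. It had 3500, 4141 and 2794 CPM in the C12mimCl libraries, against 1680, 1536 and 1976 CPM in the control libraries. Each exposed vessel was above each unexposed one, which the choice of the gene required. The log2 fold change, held to 2-fold or more by the same choice, was 1.01 with an SE of 0.319 (adjusted p = 0.032 by edgeR's quasi-likelihood test). The call was lost without C12mimCl replicate 1 or 2 (adjusted p = 0.0782 and 0.1), as it was when control replicate 1 or 2 was left out (adjusted p = 0.0959 and 0.101). When the outside-gene read share was a covariate, the log2 fold change was 0.62 and not called (adjusted p = 0.273). The gene had 1696, 847 and 811 CPM after C2mimCl and 89.2, 166 and 106 CPM after CholCl, where it fell by 3.85 on the log2 scale (adjusted p = 0.00011). The largest of its 3 p-values against the other groups missed the threshold after adjustment (0.0553).

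Dapma7bEVm005712 had the smallest p among genes that stood above all 3 other groups. Its level was 155, 166 and 138 CPM in the C12mimCl libraries, 90.2, 73.4 and 73.4 CPM after C2mimCl and 47.4, 44.3 and 48.9 CPM after CholCl, against 74.6, 77.5 and 84.2 CPM in controls. The C12mimCl values did not overlap with those of any other group, which follows at least in part from the choice of the gene. Against control the gene was higher by 0.96 on the log2 scale (SE 0.125; adjusted p = 0.000557 by edgeR's quasi-likelihood test), and the largest of its 3 p-values against the other groups remained at 0.000941 after adjustment.

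The most abundant of the genes at least 8-fold lower was Dapma7bEVm015207. It had 113, 72.0 and 441 CPM after C12mimCl, against 3351, 2012 and 6142 CPM in controls. The groups did not overlap, but values within each group differed several-fold, and the log2 fold change of -4.20 had an SE of 1.22 (adjusted p = 0.0232 by edgeR's quasi-likelihood test). The call was lost without C12mimCl replicate 1 or 2 (adjusted p = 0.0863 and 0.0757) and without control replicate 1 (adjusted p = 0.0502). When the outside-gene read share was a covariate, its log2 fold change was -2.21 (adjusted p = 0.123). It was also low after CholCl, at 230, 29.6 and 496 CPM, while the C2mimCl libraries had 725, 9467 and 5421 CPM.

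Dapma7bEVm007335 had the smallest p among genes that stood below all 3 other groups. Its level was 5.19, 7.61 and 6.28 CPM in the C12mimCl libraries, from 82, 100 and 82 reads, against 125, 97.5 and 94.6 CPM in controls. The gene fell by 4.05 on the log2 scale (SE 0.208; adjusted p = 6.58e-06 by edgeR's quasi-likelihood test). The log2 fold change lay between -3.92 and -4.20 with each of the 6 libraries left out, always called. The gene had 81.5, 97.5 and 82.1 CPM after C2mimCl and 117, 116 and 156 CPM after CholCl, and neither was called against control (adjusted p = 0.479 and 0.217). The largest of its 3 p-values against the other groups was 3.65e-05 after adjustment.

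Over all genes, the difference of C12mimCl from every other group was tested in the same way, with the largest of the 3 p-values per gene adjusted over all genes. C12mimCl stood above control, C2mimCl and CholCl for 882 genes (5.57% of those tested) and below all 3 for 1713 (10.8%). The 882 genes had a median level of 21.3 CPM after C12mimCl and 11.6 CPM in controls, and 378 of them were at least 2-fold above each other group. The 1713 genes had a median level of 11.3 CPM after C12mimCl and 30.01 CPM in controls, with 1007 at least 2-fold below each other group. At least 8-fold from each other group lay 2 of the higher and 185 of the lower genes. The genes that stood below had median log2 differences of -1.39 from C2mimCl, -1.57 from CholCl and -1.28 from control. Those that stood above had medians of 1.10 from C2mimCl, 1.44 from CholCl and 0.96 from control.

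These counts moved with single libraries, the scaling and 1 covariate. Upper-quartile factors gave 1364 genes above and 1325 below all 3 other groups, which ends the excess of genes below. The higher genes numbered 231, 385 and 490 without C12mimCl replicates 1, 2 and 3, and fell to 274 when control replicate 1 and to 361 when control replicate 2 was left out. They numbered 1673 and 475 without C2mimCl replicates 1 and 3, and 554 without CholCl replicate 3. The lower genes numbered 1002 without C12mimCl replicate 1 and 1231 to 2220 without any other single library. When the outside-gene read share was a covariate, 290 genes stood above and 881 below all 3 other groups.

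Many genes were measured closely enough to bound their change. For 6315 genes (39.9%) the 95% interval of the log2 fold change lay wholly within 2-fold in either direction, and 1182 of these were called, with changes that were small. Another 5113 genes (32.3%) were neither called nor bounded within 2-fold, so that a change of that size was neither shown nor excluded for them. The bounded share was 3.99% of genes under 1 CPM, 29.6% at 1 to 10 CPM, 55.4% at 10 to 100 CPM and 43.2% over 100 CPM.

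The reads were spread over fewer genes in each C12mimCl library than in any control library. The effective number of genes, the exponential of the Shannon entropy of the gene shares, was 1591, 1661 and 1544 in the C12mimCl libraries, against 2329, 2053 and 1822 in controls. The groups did not overlap, with means of 1599 ± 58.5 after C12mimCl and 2068 ± 254 in controls (SD, n = 3 each; exact permutation test, two-sided, p = 0.1, the smallest p possible). A low number was not particular to C12mimCl, with 840, 1201 and 855 after CholCl and 1965, 1295 and 1472 after C2mimCl. A share of 50% of the gene reads came from the top 259, 263 and 243 genes after C12mimCl and from the top 436, 415 and 332 genes in controls. Genes with at least 1 read numbered 20228, 19693 and 19803 after C12mimCl and 20343, 20632 and 20014 in controls, and the 10 most abundant genes held 17.6%, 16.3% and 17.7% of gene reads after C12mimCl and 13.9%, 17.1% and 16.5% in controls. The groups overlapped in both of these measures (exact permutation test, two-sided, p = 0.2 and 0.3). Over the 4 measures per library, with the share of reads outside genes, the Benjamini-Hochberg adjusted p ranged from 0.267 to 0.3.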

How the data were processed

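Messenger RNA of whole animals was sequenced in 12 libraries, 3 per group. The deposited values are raw gene-level read counts, in whole numbers. Per the submitters' processing notes, Trimmomatic 0.39, STAR 2.7.3a and HTSeq were used; the build, annotation and strand setting of the counting are not stated in these sources, so overlapping, antisense and near-identical genes are uncertain. Of 46334 gene rows, 22708 were at 0 in the 12 libraries; the 5 summary rows (8.11% to 10.1% reads outside genes and 8.99% to 10.0% without a unique position after C12mimCl) stayed out of library sizes and tests. None of the identifiers (0) matched the 28335 genes of the name table of assembly ASM2063170v1.1.

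The tests used edgeR 4.0.16 (R 4.3.3): expression filter (minimum count 10, minimum total 15; the 15847 genes kept hold at least 99.9% of gene reads), TMM factors, and a robust quasi-likelihood fit with 1 mean per group over the 12 libraries. CPM were scaled by TMM factors. Intervals of fold changes are at 95% and rest on the spread between vessels. Replicates are separate vessels of animals from the same bulk cultures, so p-values measure the spread between vessels. They differed by far more than counting noise (chi-square per degree of freedom of 22.2 or more) and each counted as 1. The scripts were checked on simulated counts with changes of known size, 2-fold or 4-fold, in as many genes up as down. That check does not cover the scaling where large falls outnumber large rises, as in these data. Named genes were the most abundant non-overlapping rise of at least 2-fold, the most abundant fall of at least 8-fold, and the smallest p in each direction of the test against all 3 other groups. The groups, lists, tests and alternatives were chosen with earlier results of these data known.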

Additional observations from a re-analysis of the deposited data

How the results depend on the processing

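Counts of genes called lower, at least 8-fold lower and bounded within 2-fold stayed within 1.5 times of the reported ones under every alternative run (RLE, upper-quartile and reduced TMM scaling, DESeq2 1.42.0, limma-voom (limma 3.58.1), 2 count filters, a fit of 6 libraries, the replicate block, the covariate and each library left out). Left-out libraries gave 3422 to 7434 genes called, 908 to 3313 higher, 490 to 1388 changed by more than 2-fold, and 1233 to 3893 apart from all 3 other groups. They gave 6 to 34 genes near 0 in controls. This count could only grow when a control library was left out, since the limit stayed at 3 reads. Upper-quartile scaling gave 3892 genes higher and the covariate 1171 genes apart. In limma-voom 381 genes changed by more than 2-fold, in a test with a stricter form of the null. Genes near 0 after C12mimCl numbered 88 with a limit of 0 reads and 139 with a mean of at least 50 reads in controls; genes near 0 in controls numbered 0 under both. The causes were not tested. The test against all 3 groups has no form with 6 libraries. Same-numbered libraries of the groups deviated from their group means with correlations of -0.12, 0.11 and 0.36 across genes, and 1 of 3 C12mimCl libraries correlated best with the control of its own number, so the numbers were not taken as pairs. With the replicate block 5220 genes were called, and the call of Dapma7bEVm000735 was lost (adjusted p = 0.0521). The 4 library-level differences kept their sign in each setting. With 3 libraries a group, small changes in scarce genes were out of reach.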
